A study of Mus musculus with 9 samples.

Results

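Flow cytometry separates mouse mammary cells by a small set of surface proteins, and the RNA of 10 genes that encode them was followed here through the steps that precede a sort. The genes are Itga2, Itga6, Itgb1, Itgb3, Cd24a, Epcam, Prom1, Kit, Cd14 and Ly6a. They were chosen by name as sorting markers, with earlier results of these data known. Of the 10 genes, 9 had a probe row annotated to that gene alone, 1 row each, out of 19938 genes tested. Ly6a, which encodes Sca-1, was not analysed here.

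All 9 samples were mammary gland epithelial cells of wild-type C3H female mice aged 8 to 9 weeks, and all had been released from the fat with collagenase. The 3 untrypsinized samples had received no further digestion. The 3 trypsinized samples were then treated with trypsin, and the 3 mock sorted samples went through trypsin and a mock FACS run, a passage through fluorescence-activated cell sorting described as mock. No sample was split by a surface marker, so all groups are whole preparations. The labels call the samples of a group biological replicates but give neither the animals nor any pooling, so a p-value measures only the spread between these samples, which may be technical. In such bulk RNA, fewer cells of a type and less RNA per cell cannot be told apart.

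Integrins are pairs of an alpha and a beta chain that bind the extracellular matrix. The laminin-binding alpha 6 chain (CD49f) and the beta 1 chain (CD29) are high on basal cells of the mammary gland, where stem cell activity is assayed, whereas CD24 and EpCAM are high on luminal cells. CD61, CD49b, c-Kit and CD14 are used to enrich luminal progenitors, and CD133 and Sca-1 to mark hormone-sensing luminal cells. Trypsin cuts proteins at the cell surface, but the arrays measured RNA and say nothing of the proteins themselves.

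Array values were deposited intensities, compared as log2(intensity + 1). Levels of different markers are not compared, except that the difference of a pair within an array is compared between groups. Median intensity per array ran from 345 to 408, and log2 intensities correlated at 0.987 to 0.990 within groups. For the labelled cell type, group means of the luminal keratin Krt8 were 13.87 to 13.93 and those of the basal keratin Krt5 were 12.75 to 12.83. Markers of other cells were also present. Replicate 1 of the trypsinized and of the mock sorted group stood apart by lymphocyte markers, with summed levels (log2 of the summed intensity of 10 genes) of 13.93 and 13.73 against 12.45 to 12.63 in the other 4 arrays of those groups and 11.83 to 12.00 in the untrypsinized arrays. Some marker results are also given without both of these arrays, and counts of lymphocyte calls are given over fits without single arrays.

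The test was limma with Benjamini-Hochberg adjustment over the 19938 genes, and a call needed both an adjusted p no higher than 0.05 and a change of 1.5-fold or more, the numbers in the submitters' design text. No sorting marker was called in any of the 3 comparisons. Over all genes, 1.46% were called after trypsin, 1.19% between trypsinized and mock sorted cells, and 4.47% between untrypsinized and mock sorted cells, so 0 of 9 is near that background. The called genes were higher in 0.532%, 0.0251% and 1.08% of all genes and lower in 0.933%, 1.17% and 3.40%. With the p read as unadjusted and the same minimum fold, the count of markers was again 0 in each comparison, beside 1.84%, 1.33% and 4.67% of all genes. At an unadjusted p under 0.05 with no minimum fold, 3, 2 and 7 of the 9 markers passed, beside 39.7%, 17.2% and 49.3% of all genes.

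The intervals of the 9 markers were also set against the minimum fold. The 95% interval of the change lay inside 1.5-fold in either direction for 9 of 9 markers in each comparison. The same held for 90.9%, 93.7% and 86.0% of all genes, so 9 of 9 is near that background. Of the 27 intervals, the bound farthest from no change was 1.39-fold, for Itga2 after trypsin. These intervals are not widened for their number.

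**Figure D1:**
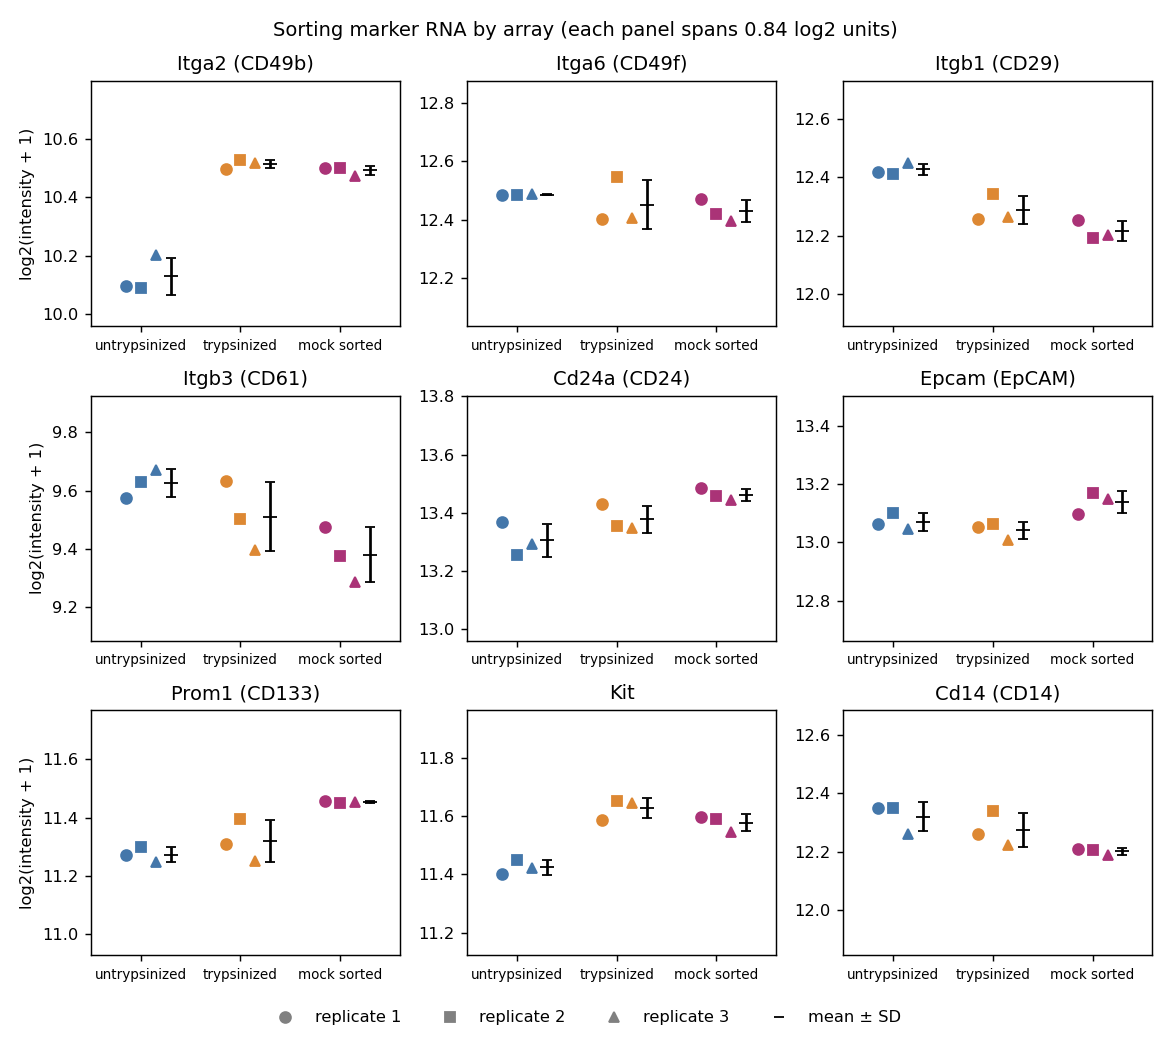
Each panel plots log2(intensity + 1) of 1 sorting marker in the 9 arrays, by group, with the mean and SD of each group, and every panel spans 0.84 log2 units. Itga2 sits at 10.09 to 10.20 in the untrypsinized arrays and at 10.47 to 10.53 in the other 6 arrays, whereas Itga6 overlaps between untrypsinized and trypsinized cells.

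Among the integrin chains, Itga2 was higher in both later groups than in untrypsinized cells, by less than the minimum fold. Itga2 encodes alpha 2, or CD49b, which pairs with beta 1 as a collagen receptor. It read 10.10, 10.09 and 10.20 on the log2 scale in the untrypsinized arrays, 10.50, 10.53 and 10.52 in the trypsinized arrays, and 10.50, 10.50 and 10.47 in the mock sorted arrays. Every trypsinized and mock sorted array was above every untrypsinized array, and the 2 later groups overlapped. The trypsinized mean was 0.39 higher on the log2 scale (SE 0.04, n = 3 against 3, limma adjusted p = 0.00072), or 1.31-fold with a 95% interval of 1.23 to 1.39. Mock sorted exceeded untrypsinized cells by 0.36 (SE 0.04, limma adjusted p = 0.00026), while mock sorted minus trypsinized was -0.02 (limma adjusted p = 0.829), or 0.008 after quantile normalization. With replicate 1 of the trypsinized and mock sorted groups left out, the difference after trypsin was 0.39 (limma adjusted p = 0.00827). As deposited, no other marker reached a difference as large as this one in any comparison, but with arrays set to a common median Itgb3 and Itgb1 differed by -0.39 and -0.36 between mock sorted and untrypsinized cells, and Itga2 by 0.21.

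Itgb1, the beta 1 chain, was lower in each later group than in untrypsinized cells. The log2 intensities were 12.42, 12.41 and 12.45 before trypsin, 12.26, 12.34 and 12.26 after it, and 12.25, 12.19 and 12.20 after the mock sort. The 3 groups did not overlap, but trypsinized replicate 1 at 12.2565 and mock sorted replicate 1 at 12.2547 nearly met. Mock sorted minus trypsinized was -0.07 (SE 0.04, limma adjusted p = 0.398) and did not pass. Trypsinized minus untrypsinized was -0.14 (SE 0.04, limma adjusted p = 0.0308), and this p exceeded 0.05 when any untrypsinized array, trypsinized replicate 1 or trypsinized replicate 3 was left out (0.0589 to 0.0987). Without replicate 1 of both the trypsinized and the mock sorted group it was 0.103, with the replicate number as a block it was 0.0570, and in a fit of only these 2 groups it was 0.0635. Mock sorted minus untrypsinized was -0.21 (SE 0.04, limma adjusted p = 0.00343), and every fit without 1 array kept its p between 0.0038 and 0.0161.

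Itgb3 encodes beta 3, or CD61, and was lower in mock sorted than in untrypsinized cells. In array order its log2 intensities were 9.58, 9.63 and 9.67, then 9.63, 9.50 and 9.40, then 9.48, 9.38 and 9.29 in untrypsinized, trypsinized and mock sorted arrays. All mock sorted arrays lay below all untrypsinized arrays, and the trypsinized arrays overlapped with both. Mock sorted minus untrypsinized was -0.25 (SE 0.07, limma adjusted p = 0.0249), and the p was 0.0603 to 0.0846 without untrypsinized replicate 2 or 3 or mock sorted replicate 2 or 3. The steps on either side of trypsinized cells were -0.12 and -0.13 (limma adjusted p = 0.252 and 0.402).

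Itga6 encodes alpha 6, the CD49f of basal cell gates. Log2 intensities of Itga6 were 12.48, 12.48 and 12.49, then 12.40, 12.55 and 12.41, then 12.47, 12.42 and 12.39 across the same groups. The trypsinized arrays overlapped with both other groups, and the mock sorted arrays lay just under the untrypsinized ones. The difference was -0.03 after trypsin and -0.06 between mock sorted and untrypsinized cells (limma adjusted p = 0.615 and 0.356). The 95% interval of the latter ran from -0.16 to 0.05. Mock sorted minus trypsinized was -0.02 (limma adjusted p = 0.859), or 0.03 without trypsinized replicate 2.

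Cd24a and Epcam carry the luminal side of the usual gates. Cd24a encodes CD24, a small sialoglycoprotein with a lipid anchor. Its log2 intensities were 13.37, 13.26 and 13.29 before trypsin, 13.43, 13.35 and 13.35 after it, and 13.49, 13.46 and 13.44 after the mock sort. Mock sorted arrays were above all others, and untrypsinized and trypsinized arrays overlapped. Mock sorted minus untrypsinized was 0.16 (SE 0.04, limma adjusted p = 0.0197), with the p at 0.0504 to 0.0613 without untrypsinized replicate 2 or 3 or mock sorted replicate 1 or 2, and at 0.0554 without replicate 1 of both later groups.

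Epcam encodes the adhesion molecule EpCAM. Array by array, its log2 intensities were 13.06, 13.10 and 13.05, then 13.05, 13.06 and 13.01, then 13.10, 13.17 and 13.15. Mock sorted arrays lay above the trypsinized ones and overlapped the untrypsinized ones. Mock sorted minus trypsinized was 0.10 (SE 0.04, limma adjusted p = 0.225) and mock sorted minus untrypsinized 0.07 (limma adjusted p = 0.172; -0.08 with arrays set to a common median), so neither difference passed.

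Prom1 encodes CD133, a pentaspan membrane protein. Across the 3 groups it read 11.27, 11.30 and 11.25, then 11.31, 11.40 and 11.25, then 11.46, 11.45 and 11.45. The mock sorted arrays were tight and above all the others. Mock sorted minus untrypsinized was 0.18 (SE 0.04, limma adjusted p = 0.0111), whereas mock sorted minus trypsinized was 0.13 (SE 0.04, limma adjusted p = 0.136).

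Kit encodes the receptor tyrosine kinase for stem cell factor. The log2 intensities were 11.40, 11.45 and 11.42 before trypsin, 11.59, 11.65 and 11.64 after it, and 11.60, 11.59 and 11.54 after the mock sort. As for Itga2, the untrypsinized arrays lay below the other 6. The trypsinized mean was 0.20 higher (SE 0.04, limma adjusted p = 0.00596), or 1.15-fold, and the mock sorted mean 0.15 higher (SE 0.04, limma adjusted p = 0.0107). Kit is also a mast cell receptor; the summed level of 9 mast cell genes was 12.04 to 12.24, 12.03 to 12.05 and 12.09 to 12.26 in the 3 groups, and its part in the Kit values was not tested.

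Cd14 encodes the lipopolysaccharide co-receptor, which macrophages also carry. In the same order of arrays it read 12.35, 12.35 and 12.26, then 12.26, 12.34 and 12.22, then 12.21, 12.21 and 12.19. Mock sorted arrays were below all the others, and the other groups overlapped. Mock sorted minus untrypsinized was -0.12 (SE 0.04, limma adjusted p = 0.0572). With the replicate number as a block the p was 0.0490, and over fits without 1 array it ran from 0.0380, without untrypsinized replicate 3, to 0.1497, without untrypsinized replicate 1. The summed level of 13 macrophage and myeloid genes was 13.63 to 13.75, 13.51 to 13.86 and 13.26 to 13.65, and its part in the Cd14 values was not tested.

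The other steps of these 5 markers did not pass. After trypsin the differences were 0.07 for Cd24a and 0.05 for Prom1, which turned to -0.06 and -0.09 with arrays set to a common median, and -0.03 for Epcam and -0.05 for Cd14 (limma adjusted p = 0.233 to 0.603). From trypsinized to mock sorted cells they were 0.08 for Cd24a, -0.05 for Kit and -0.07 for Cd14 (limma adjusted p = 0.363 to 0.542). The integrin chain Itgb1 differed by -0.07 over that step (limma adjusted p = 0.398).

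**Figure D2:**
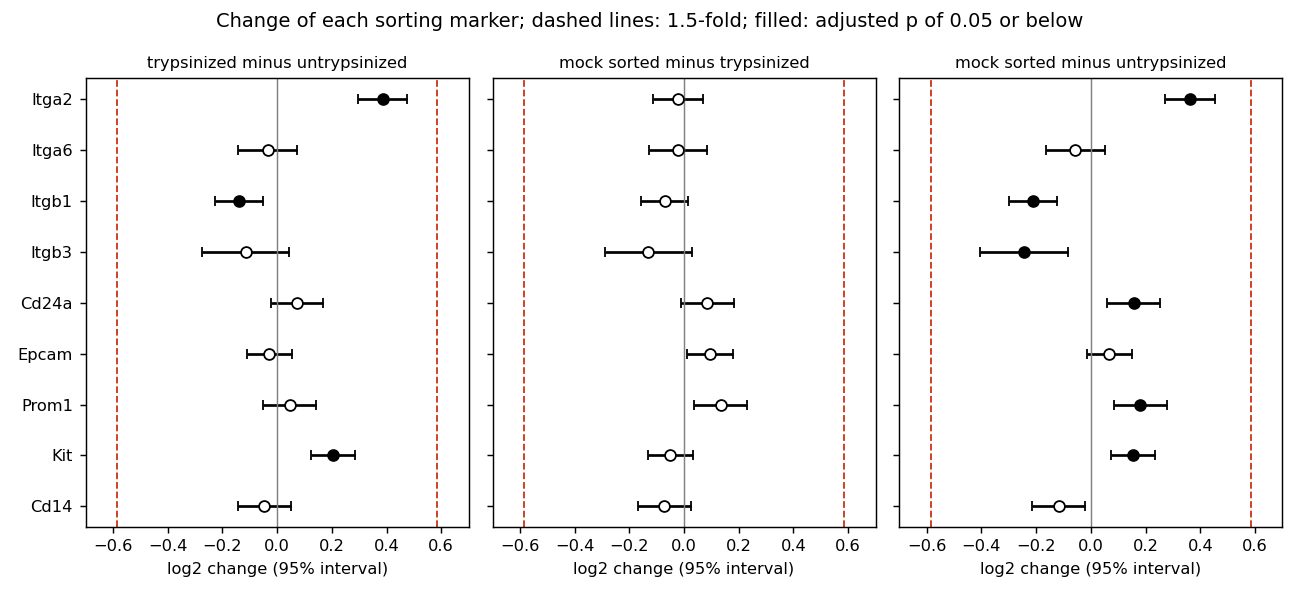
The log2 change of each sorting marker is plotted with its 95% interval in the 3 comparisons, with dashed lines at 1.5-fold and filled points at an adjusted p of 0.05 or below. All 27 intervals lie between the dashed lines, and the filled points number 3 after trypsin, 0 between trypsinized and mock sorted cells, and 6 between untrypsinized and mock sorted cells.

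Dropping the minimum fold, 3 of 9 markers passed the adjusted p after trypsin (Itga2 and Kit higher, Itgb1 lower), beside 25.4% of all genes, 13.9% higher and 11.5% lower. None of the 9 passed between trypsinized and mock sorted cells, where 4.67% of all genes did, 0.466% higher and 4.20% lower. Between untrypsinized and mock sorted cells 6 passed (Itga2, Kit, Prom1 and Cd24a higher, Itgb1 and Itgb3 lower), beside 39.0% of all genes, 21.0% higher and 18.0% lower. Groups did not overlap for 3, 5 and 8 of the 9 markers in these comparisons, beside 44.4%, 24.0% and 52.1% of all genes. Over the 3 groups together, the moderated F test passed 4 markers, Itga2, Kit, Itgb1 and Prom1 (limma adjusted p = 0.00034 to 0.0255), beside 33.2% of all genes. The comparisons share samples, so their counts are not independent.

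The size of these differences depended on how arrays were put on a common scale. As deposited, the median gene was 0.04 higher after trypsin and 0.05 higher in mock sorted than in untrypsinized cells. After each array was set to a common median these became -0.09 and -0.09. That median was over all 35512 rows, including 12102 not listed in the annotation, so it did not centre the genes tested. Relative to the median gene of its comparison, Itga2 was 0.35 higher and Kit 0.16 higher after trypsin, and Itgb1 was -0.18. On the common-median scale Itga2 was still 0.25 higher after trypsin (limma adjusted p = 0.00469) and Itgb1 was -0.36 in mock sorted against untrypsinized cells (limma adjusted p = 0.000767). On that scale Kit was 0.07 higher after trypsin (limma adjusted p = 0.339), and Kit, Cd24a and Prom1 differed by 0.00, 0.01 and 0.03 between mock sorted and untrypsinized cells (limma adjusted p = 0.960, 0.935 and 0.714). Conversely, Itgb3 and Epcam after trypsin passed the adjusted p there at -0.25 and -0.16 (limma adjusted p = 0.0163 and 0.0409). Itga6 and Cd14 did so between mock sorted and untrypsinized cells at -0.21 and -0.27 (limma adjusted p = 0.0273 and 0.00869). After quantile normalization Kit was 0.21 higher after trypsin (limma adjusted p = 0.0054). Kit, Cd24a and Prom1 were then 0.17, 0.12 and 0.20 higher in mock sorted than in untrypsinized cells (limma adjusted p = 0.00808, 0.0313 and 0.00654). Neither Itgb3 and Epcam after trypsin nor Itga6 and Cd14 in mock sorted cells passed there (limma adjusted p = 0.0632, 0.630, 0.458 and 0.102).

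Gates use pairs of markers, and the difference of log2 intensities of a pair within an array is not changed by the common-median scaling. Quantile normalization can change it, and the differences given here are of deposited values. No gate was applied to these cells, and these are RNA differences described with no test. The Cd24a minus Itgb1 difference was 0.88 ± 0.06 in untrypsinized, 1.09 ± 0.08 in trypsinized and 1.25 ± 0.02 in mock sorted arrays (SD, n = 3 each). The 3 groups did not overlap, and the shift from untrypsinized to mock sorted was 0.37, or 1.29-fold. For Cd24a minus Itgb3 the shift was 0.40, or 1.32-fold, again without overlap between any groups. Untrypsinized and trypsinized arrays nearly met there, at 3.791 and 3.798 in their replicates 1. Cd24a was higher and Itgb1 and Itgb3 lower in mock sorted cells, so the shifts of these pairs restate the single-marker differences. Cd24a minus Itga6 moved by 0.21 and Epcam minus Itga6 by 0.12, and only the untrypsinized and mock sorted arrays were separate for these pairs. The share of all gene pairs without overlap was not computed. Of single genes, 44.4% did not overlap after trypsin, 24.0% between trypsinized and mock sorted cells, and 52.1% between untrypsinized and mock sorted cells.

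**Figure D3:**
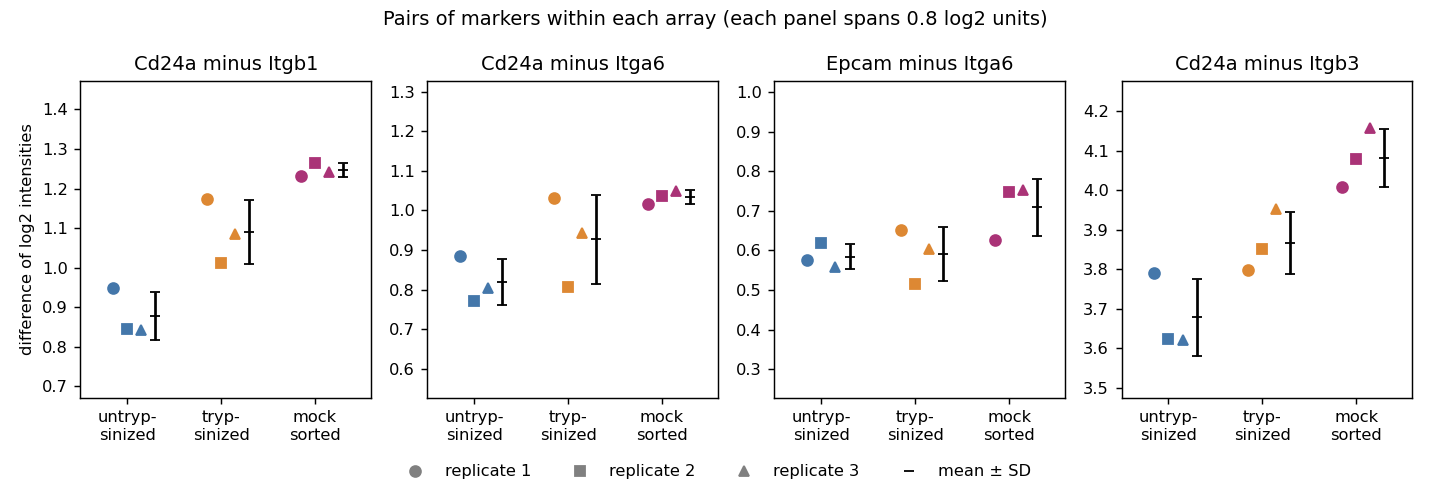
The difference of log2 intensities of 4 pairs of markers within each array is plotted by group, with the mean and SD, and each panel spans 0.8 log2 units. Cd24a minus Itgb1 runs from 0.84 to 0.95 in untrypsinized, 1.01 to 1.17 in trypsinized and 1.23 to 1.26 in mock sorted arrays.

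The 3 markers that passed the adjusted p after trypsin, without the minimum fold, had promoters in the RefSeq table of GRCm38.p6, which held 5 of the 10 genes. The 250 bases before the annotated start are shown because these markers differed after the same step. They lie at chr13:114932101-114932350 on the minus strand for Itga2, chr5:75574737-75574986 on the plus strand for Kit (the first of 2 listed starts) and chr8:128685404-128685653 on the plus strand for Itgb1. Each is written 5′ to 3′ on the gene's strand, with matches to the searched motifs in capitals.
Itga2: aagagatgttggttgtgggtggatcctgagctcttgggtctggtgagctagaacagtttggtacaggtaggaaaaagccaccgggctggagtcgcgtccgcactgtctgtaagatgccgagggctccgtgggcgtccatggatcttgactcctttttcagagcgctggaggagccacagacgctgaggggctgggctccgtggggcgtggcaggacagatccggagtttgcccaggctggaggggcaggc
Kit: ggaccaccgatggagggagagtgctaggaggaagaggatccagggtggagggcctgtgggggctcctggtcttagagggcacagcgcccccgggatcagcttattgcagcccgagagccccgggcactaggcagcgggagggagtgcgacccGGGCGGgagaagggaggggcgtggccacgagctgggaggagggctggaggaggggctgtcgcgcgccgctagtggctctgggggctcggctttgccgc
Itgb1: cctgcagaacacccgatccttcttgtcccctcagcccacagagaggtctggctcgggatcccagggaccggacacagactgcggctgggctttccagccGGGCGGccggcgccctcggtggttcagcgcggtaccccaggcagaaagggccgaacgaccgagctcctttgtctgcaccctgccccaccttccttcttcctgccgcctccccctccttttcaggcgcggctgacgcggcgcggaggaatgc
The letters GGGCGG (a GC box), TGANTCA and CCAAT were searched on both strands. Kit and Itgb1 each had 1 match to GGGCGG, which 32.7% of 32851 promoters of this length held, and Itga2 had no match to any of the 3. TGANTCA was held by 6.75% and CCAAT by 33.8% of promoters, and neither was found in these windows. The GC content was 60.8% for Itga2, 70.8% for Kit and 68% for Itgb1, against a median of 52.4% over all promoters. A match describes letters, not a binding site.

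Some integrin chains outside the sorting set fell past the minimum fold. Of 22 measured, 0 were called after trypsin (1 on the common-median scale), 2 fell between trypsinized and mock sorted cells and 3 fell between untrypsinized and mock sorted cells. Itga1, a collagen-binding chain, fell by 0.83 and 1.30 in these last comparisons (limma adjusted p = 0.000376 and 6.53e-06). Itga7, a laminin-binding chain of muscle, fell by 0.66 and 1.07, and Itga9 fell by 0.77 between untrypsinized and mock sorted cells. The list medians were 0.13, -0.09 and 0.07 against 0.04, 0.00 and 0.05 for all genes, and the last became -0.08 on the common-median scale.

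Of 13 measured cytoplasmic adaptors that link integrins to actin, Lims2 fell at every step, by 0.71 after trypsin, 1.04 from trypsinized to mock sorted and 1.74 from untrypsinized to mock sorted cells. Parvb, which encodes beta-parvin, fell by 0.75 and 1.05 in the latter 2 comparisons. No other adaptor was called, and the list medians were -0.02, -0.10 and -0.10.

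A further list held other sorting markers, including those used to exclude blood and vessel cells. Of 22 measured, 0, 2 and 5 fell in the 3 comparisons and none rose. Pecam1, the endothelial CD31 of lineage exclusion gates, had log2 intensities of 12.10, 12.16 and 12.26, then 11.76, 11.73 and 11.65, then 10.83, 10.51 and 10.57. The 3 groups were fully separate, and Pecam1 fell by 1.08 from trypsinized to mock sorted cells (limma adjusted p = 0.000285). Procr, the endothelial protein C receptor, fell by 1.08 over the same step, and Mcam, Eng and Cd34 fell by 0.93, 0.73 and 1.004 between untrypsinized and mock sorted cells. The count of 2 between trypsinized and mock sorted cells became 4 without mock sorted replicate 1, and the count of 0 after trypsin became 2 on the common-median scale. Ptprc, the pan-leukocyte CD45, was 0.89 higher after trypsin with an SE of 0.45 (limma adjusted p = 0.178), with trypsinized replicate 1 at 11.31 and the others at 10.21 and 9.94.

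Of 17 measured relatives, ligands and partners of the sorting markers, none was called. The Ly6 family gene Ly6g6c was 0.35 higher after trypsin and 0.50 higher in mock sorted than in untrypsinized cells (limma adjusted p = 0.000595 and 1.77e-05), under the minimum fold. Lypd3, which encodes a related surface protein, was 0.31 and 0.33 higher. The list medians of 0.13, 0.02 and 0.15 became 0.00 in each comparison on the common-median scale. After quantile normalization they were 0.03, 0.02 and 0.11.

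Among the epithelial lineage lists, 1 gene was called. Of 15 luminal genes none was called. Between mock sorted and untrypsinized cells their median was 0.11 (-0.04 on the common-median scale, 0.11 after quantile normalization). As deposited, 9 were higher and 1 lower at the adjusted p in that comparison, beside 21.0% and 18.0% of all genes. Elf3, an epithelial transcription factor, was 0.50 higher and Cldn4, a tight junction claudin, 0.26 higher. Of 7 measured hormone-sensing genes none was called, with 4 higher at the adjusted p and the progesterone receptor gene Pgr 0.37 higher. Their median of 0.21 became 0.06 on the common-median scale and 0.23 after quantile normalization. Of 14 basal and myoepithelial genes, 1 fell, the myosin light chain kinase gene Mylk, by 0.77, and 9 were lower at the adjusted p. Their median of -0.23 became -0.38 on the common-median scale and -0.28 after quantile normalization. The part of pericytes, vascular smooth muscle and fibroblasts in the values of this list was not tested.

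Vessel markers fell together. Of 15 endothelial genes, 4 fell after trypsin and 15 in each of the other 2 comparisons, with medians of -0.46, -1.03 and -1.48. The count of 4 ranged from 2, without untrypsinized replicate 3, to 7, without untrypsinized replicate 1, and was 8 on the common-median scale. The summed endothelial level was 15.24 to 15.44 in untrypsinized, 14.90 to 14.91 in trypsinized and 13.76 to 14.02 in mock sorted arrays. Endothelial cells also carry beta 1, beta 3 and alpha 6, and the part of this list in the Itgb1 and Itgb3 values was not tested. Of 9 genes of pericytes and vascular smooth muscle, 2, 5 and 6 fell. The count of 2 ranged from 1, without untrypsinized replicate 3, to 3, without untrypsinized replicate 1 or 2. On the common-median scale the counts were 4, 5 and 8.

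The remaining lists were mixed. Of 12 fibroblast genes 1, 0 and 2 fell, with the last count at 1 to 3 without single arrays and at 6 on the common-median scale. Of 13 macrophage and myeloid genes 0, 1 and 3 fell. Of 9 adipocyte genes 1, 2 and 3 fell, with the first count at 2 on the common-median scale, and of 6 Schwann cell genes 4, 3 and 4 fell. Of 4 genes of erythroid cells and platelets, the latter known to carry alpha 2 and beta 3, only Pf4 fell, by 0.66 between untrypsinized and mock sorted cells. Of 9 mast cell genes, Mcpt1 rose by 0.64 in that comparison, a call lost without untrypsinized replicate 1 or 3 or mock sorted replicate 2, on the common-median scale and after quantile normalization.

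Of 10 lymphocyte genes, Lat, a T-cell signalling adaptor, rose by 1.51 after trypsin (limma adjusted p = 0.0365), and Lat and Cd3e rose by 1.41 and 1.41 between untrypsinized and mock sorted cells. The call of Lat after trypsin was lost without trypsinized replicate 1 or any untrypsinized array, and the count in mock sorted cells ranged from 0 to 5 over fits without 1 array. The count after trypsin ranged from 0 to 5 over fits without 1 array and was 3 on the common-median scale. T cells can carry alpha 2. In the lymphocyte-rich replicate 1 arrays Itga2 read 10.50 after trypsin, against 10.53 and 10.52 in the other arrays, and 10.50 after the mock sort, against 10.50 and 10.47. The part of lymphocytes in the Itga2 values was not tested. No gene of these lists had a row at 0 in any array.

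**Figure D4:**
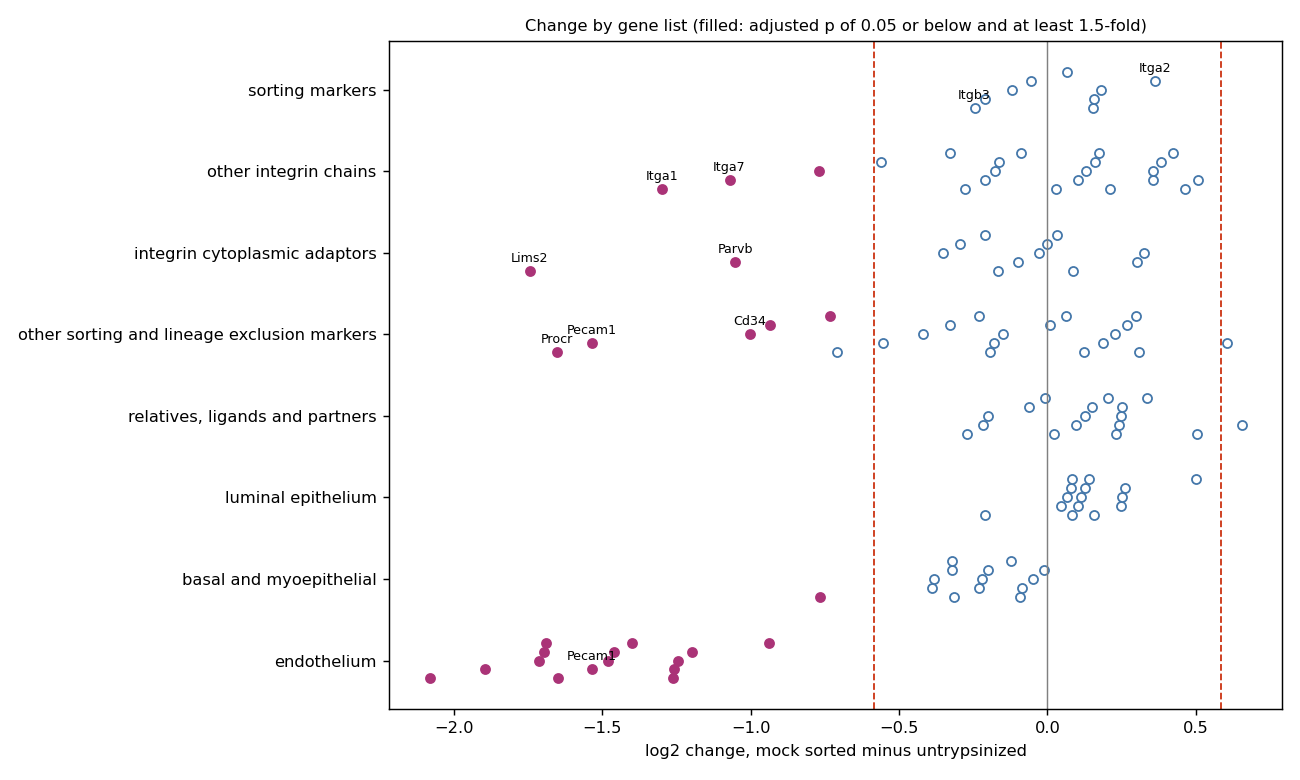
The log2 change between untrypsinized and mock sorted cells is plotted for each gene of the lists named on the axis, with dashed lines at 1.5-fold and filled points for an adjusted p of 0.05 or below and at least 1.5-fold. The sorting markers span -0.25 to 0.36 with no filled point, whereas all 15 endothelial genes are filled and lower.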

How the data were processed

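RNA of 9 samples was labelled with biotin and read on Affymetrix whole-transcript arrays, per the labels' protocols. The deposited values are linear intensities in 35512 rows. Not given in the sources used here were the background correction, summarisation and scaling; limma is named in the submitters' processing notes. Rows were named through the platform annotation, which can be old: 21789 had 1 symbol, 1621 several and 12102 were not listed. Symbols of 21698 rows were updated by gene number with RefSeq's GRCm38.p6 table, and the brightest row stood for each of the 999 genes with more than 1. Values were tested as log2(intensity + 1) with limma 3.58.1 in R 4.3.3, as a mean per group over all 9 arrays (6 residual degrees of freedom), with Benjamini-Hochberg adjustment. The design text does not say whether its p was adjusted, and it leaves out mock sorted against untrypsinized cells. The fit was tested on simulated data.

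Members and the 16 other gene lists were chosen with earlier results of these data known. All members are named; of each other list, up to 4 called genes per comparison, or otherwise the 2 with the smallest p, could be named, and a selection of these is. Krt8, Krt5 and Ptprc were named after their values were seen. Genes of like pattern were to be named only for called members, of which there were none. Some genes, such as Pecam1, are in more than 1 list.

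The labels number replicates alike in all groups. Same-numbered trypsinized and mock sorted arrays had deviations from their group means that correlated at 0.53, 0.29 and 0.29. Arrays of different number in these groups correlated at -0.36 to 0.16. Deviations within a group cancel out, so the large deviation of replicate 1 shapes the values of the other replicates. Between replicates 2 and 3 the different-number correlations were 0.13 and 0.16. The same-numbered arrays may thus be paired, from the values and not the labels. The main fit did not use this pairing, and the replicate block was an alternative. For untrypsinized arrays the same-numbered correlations were 0.11, 0.04 and -0.04 with trypsinized and 0.32, 0.18 and 0.06 with mock sorted arrays. Their different-number correlations were -0.10 to 0.09 and -0.28 to 0.14. Alternatives changed the threshold, the scaling, the pseudocount, dim genes, the row per gene, the variance model, the weight of arrays, which groups were fitted, the block on replicate number, and each array in turn by omission. A block over the 6 trypsinized and mock sorted arrays, and leaving out replicate 1 of both, were chosen after seeing the data. Sequences come from RefSeq's promoter table.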

Additional observations from a re-analysis of the deposited data

How the results depend on the processing

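No sorting marker was called under any alternative that kept the minimum fold. The 95% interval stayed within 1.5-fold for 9 of 9 markers in every comparison and alternative. In the main fit it did so for 90.9%, 93.7% and 86.0% of all genes in the 3 comparisons. The largest marker difference in any alternative was 0.42 (1.34-fold), for Itga2 after trypsin without untrypsinized replicate 3. With no minimum fold, 3 markers passed after trypsin and 6 between mock sorted and untrypsinized cells. With a variance trend and robust moderation, 2 passed between mock sorted and trypsinized cells (Epcam and Prom1, limma adjusted p = 0.0357 and 0.0435) and 8 passed the F test.

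Setting arrays to a common median turned Cd24a after trypsin to -0.0615, Prom1 after trypsin to -0.088 and Epcam between mock sorted and untrypsinized cells to -0.0819. Quantile normalization turned Itga2 between mock sorted and trypsinized cells to 0.008, and leaving out trypsinized replicate 2 turned Itga6 there to 0.0255. Over fits without 1 array or without replicate 1 of both later groups, that Itga6 value ranged from -0.0683 to 0.0255. None of these 5 passed the adjusted p before or after. Over all genes, calls after trypsin split into 106 higher and 186 lower as deposited, 55 and 376 on the common median, and 57 and 279 after quantile normalization; between mock sorted and untrypsinized cells the splits were 215 and 677, 92 and 1028, and 116 and 861. The cause of these changes was not tested.

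Over fits without 1 array, markers at the adjusted p numbered 2 to 3 after trypsin, 0 between mock sorted and trypsinized cells, 4 to 7 between mock sorted and untrypsinized cells, and 3 to 5 by the F test. With the replicate block these counts were 2, 0, 7 and 5, and in the block over 6 arrays 0 passed between mock sorted and trypsinized cells. In the pairwise comparisons the block moved Itgb1 after trypsin (limma adjusted p = 0.0570) and Cd14 between mock sorted and untrypsinized cells (0.0490) across the adjusted p of 0.05, and no other marker. It moved the F test from 4 markers to 5. Counted by marker, comparison and alternative, 483 results kept direction and side of the threshold, 21 lost it, 13 gained it and 5 turned. Several alternatives could not alter a marker's log2 difference, such as the replicate block, the variance trend and the mean of all rows. These counts therefore do not measure how robust the directions are.

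The number of arrays limits precision, and fold changes of dim genes are understated by the pseudocount. Which settings made the deposited intensities is unknown, so small shifts of many genes and scaling cannot be told apart.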
